A study of Mus musculus with 60 samples.

Results

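The subunits of the glutamate and GABA receptors were followed in mouse cortex through sleep deprivation and recovery sleep. The members were the genes whose symbols in the array's probe-to-gene table name an AMPA, kainate, NMDA, delta or metabotropic glutamate receptor subunit, or a GABA-A or GABA-B receptor subunit. The table held 41 such genes, and 38 of them, 23 for glutamate and 15 for GABA, had a probeset (a set of probes for 1 transcript) over a log2 value of 4 in more than 50% of the arrays. Those 38 are part of the 18386 genes with 1 symbol and a kept probeset. Gabra6, Gabrr1 and Gabrr3 did not reach that level, with means over all arrays of 3.35, 3.44 and 3.45, while the members just above it were Gabrp at 4.12 and Grin3b at 4.20. Where a gene had several kept probesets, the one with the highest mean was used.

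All mice were male C57BL/6J animals of 2 months, an inbred laboratory strain, and RNA from the cortex of the left hemisphere was measured on Mouse Gene 2.1 ST arrays (Affymetrix), 1 array for each animal. The SD group (n = 7) went without sleep for 6 h from lights on (zeitgeber time 0, ZT0) and was taken at ZT6. The RS2 group (n = 4) had 2 h of recovery sleep after 6 h of sleep deprivation (ZT8). RS3 mice (n = 7) had 5 h of sleep deprivation and 3 h of recovery sleep (ZT8), and RS6 mice (n = 7) had 5 h of sleep deprivation and 6 h of recovery sleep (ZT11). Undisturbed controls, whose group names carry their ZT, were CC0, CC6, CC8 and CC11 with 7 mice each and CC7 with 6. RS2 and RS3 share the CC8 controls. The length of sleep deprivation differed between SD and both RS3 and RS6, and where they are set against SD the length of wakefulness and the recovery cannot be told apart.

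Glutamate carries most fast excitation in the cortex. AMPA and kainate receptors are ion channels that open on binding it, NMDA receptors are channels that also need depolarization and admit calcium, and the metabotropic receptors (Grm genes) act through G proteins. GABA is the main inhibitory transmitter of the adult cortex: GABA-A receptors are chloride channels built of 5 subunits, and GABA-B receptors are G protein-coupled pairs of Gabbr1 and Gabbr2. Glutamate receptors and their trafficking have long been studied in connection with sleep loss, and GABA-A receptors are the targets of benzodiazepines and of many anaesthetics.

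The values are log2 intensities from Robust multi-array average (RMA). RUV normalization takes factors of unwanted variation from how mice of the same group differ. Log2 fold changes below come from a limma model with the 9 groups and 6 RUV factors, fitted over the 59 arrays, and p-values carry a Benjamini-Hochberg adjustment over all 32819 kept probesets, with an FDR under 0.01 as the threshold. Fold changes called RMA come from the same model without the factors. On an array the level of a probeset cannot be set against that of another, so all comparisons are within a gene. In tissue RNA, fewer cells of a type and less RNA per cell cannot be told apart. Each array had between 78.1% and 81.1% of its probesets over a log2 value of 4. On the first principal component of the RMA values (26.9% of the variance) 5 arrays stood apart, namely replicate 1 of SD, CC0, CC8 and RS6 and replicate 2 of SD. Markers of excitatory neurons were present in every group, among them Slc17a7, the vesicular glutamate transporter of cortical pyramidal cells, with a mean of 11.36 over all arrays. Markers of striatum (7 of 10 listed were measured) varied, with array means between 7.86 and 8.93 in SD, 8.03 and 9.27 in CC6, and 8.63 and 9.46 in CC11.

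The members that changed after sleep deprivation, Grm3 and Gabra4, both lie on chromosome 5 of the mouse. Gabra4 belongs to a cluster there with Gabrg1, Gabra2 and Gabrb1, and the annotated transcripts of Gabra4 and Gabrb1 run toward each other from their starts on opposite strands, so that they overlap there. Whether array probes lie in that overlap was not tested. The stretches around the starts of these 3 genes, from 250 bases before to 50 bases after, are shown because the start of a gene that fell (Gabra4) and of one with no detected change (Gabrb1) lie 288 bases apart, window to window. The sequences are those of RefSeq on GRCm38.p6, in the direction of transcription: Gabra4 at chr5:71658259-71658558 on the minus strand, Gabrb1 at chr5:71657671-71657970 on the plus strand and Grm3 at chr5:9725303-9725602 on the minus strand. Capitals mark matches to the EGR motif (GCGNGGGCG) or to the GC box (GGGCGG) on either strand, which can overlap each other.
Gabra4: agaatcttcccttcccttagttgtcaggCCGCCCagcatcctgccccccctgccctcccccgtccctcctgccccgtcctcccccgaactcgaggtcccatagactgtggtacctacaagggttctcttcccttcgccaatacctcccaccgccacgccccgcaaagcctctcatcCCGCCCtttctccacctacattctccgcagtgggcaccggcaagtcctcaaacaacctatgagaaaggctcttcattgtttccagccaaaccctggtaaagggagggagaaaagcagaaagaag
Gabrb1: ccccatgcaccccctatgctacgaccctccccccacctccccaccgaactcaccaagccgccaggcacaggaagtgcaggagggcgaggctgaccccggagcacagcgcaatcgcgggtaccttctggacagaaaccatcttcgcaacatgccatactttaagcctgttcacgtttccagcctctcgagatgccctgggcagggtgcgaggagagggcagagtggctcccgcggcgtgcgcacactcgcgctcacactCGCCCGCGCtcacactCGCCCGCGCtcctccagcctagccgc
Grm3: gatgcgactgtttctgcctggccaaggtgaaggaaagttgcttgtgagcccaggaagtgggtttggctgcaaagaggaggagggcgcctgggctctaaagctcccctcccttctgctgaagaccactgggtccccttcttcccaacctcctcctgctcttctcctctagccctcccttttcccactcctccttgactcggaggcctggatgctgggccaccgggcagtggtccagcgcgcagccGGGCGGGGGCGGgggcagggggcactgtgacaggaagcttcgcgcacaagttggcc
Gabra4 held 2 GC boxes, Gabrb1 held 2 EGR matches, and Grm3 held 1 EGR match within a run that also holds 2 GC boxes. None of these 3 windows held the CRE (TGACGTCA), the E-box (CACGTG) or the AP-1 motif (TGANTCA), searched on both strands. Of 32851 windows of the same length, 5.55% held the EGR motif, 35.7% the GC box, 1.79% the CRE, 7.15% the E-box and 7.81% AP-1. Among the 35 windows found for 28 member genes, 4 held the EGR motif, 17 the GC box, 2 AP-1 and 0 the CRE or the E-box. A match in these letters is not a binding site, and binding was not measured. Some member genes had several windows, and for Gabrb1 the window of lowest position was taken. Its motif matches and its distance to Gabra4 are those of that window. Whether the arrays measure transcripts from the starts shown was not tested.

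Sleep deprivation lowered 1 of the 23 glutamate receptor transcripts and 1 of the 15 GABA receptor transcripts, and raised none. The pair was Grm3, which encodes the metabotropic receptor mGluR3 of neurons and astrocytes, and Gabra4, which encodes the alpha4 subunit of GABA-A receptors, known for its place outside synapses together with the delta subunit. They make up 2 of 38 members against 1.93% of all kept probesets that passed in either direction (0.844% lower). At an unadjusted p under 0.05 the count was 10 of 38 members, against 15.9% of all probesets.

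On the arrays, Grm3 in CC6 ran from 10.95 through a median of 11.01 to 11.15 on the log2 scale. In SD it ran from 10.56 through 10.75 to 10.95. Replicate 6 of SD was the only sleep-deprived mouse above the lowest control, and the other 6 lay below all 7 controls. The fitted log2 fold change was -0.24 with a standard error (SE) of 0.049, a fall by 15.0% (limma with RUV, adjusted p = 0.00169), and with RMA it was -0.28 (adjusted p = 0.000595). Each of the 14 fits that left out 1 SD or CC6 mouse kept the call, with log2 fold changes from -0.27 to -0.21. Fitted on the SD and CC6 arrays alone, without RUV, Grm3 did not pass (adjusted p = 0.0903), and neither did Gabra4 (adjusted p = 0.122). That fit called 37 of the kept probesets in all, against 634 in the full model.

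Gabra4 ran from 10.49 through 10.59 to 10.68 in CC6 and from 9.98 through 10.33 to 10.43 in SD. The groups did not overlap, a state that 0.698% of all probesets had in this direction. Its lowest values were those of SD replicates 1 and 2, both among the arrays that stood apart. The log2 fold change was -0.18 (SE 0.0356), a fall by 12.0% (adjusted p = 0.000632), and -0.30 with RMA (adjusted p = 0.0028). Without the 5 arrays that stood apart it was -0.17 (adjusted p = 0.00296), and that of Grm3 was -0.21 (adjusted p = 0.0015).

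**Figure D1:**
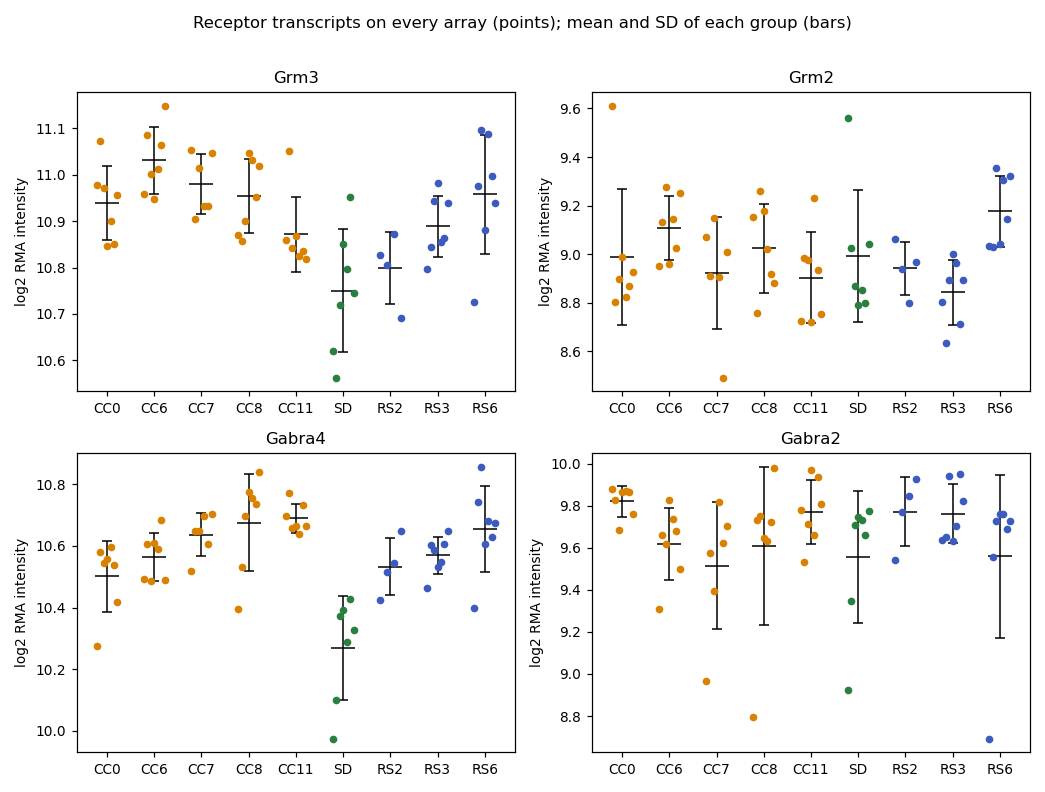
Log2 RMA intensity (y axis) of Grm3, Grm2, Gabra4 and Gabra2 in the 9 groups (x axis). Each point is 1 mouse, orange for undisturbed controls, green for sleep deprivation and blue for recovery sleep, and the bars give the mean and SD of the group. All 7 SD values of Gabra4 lie below the CC6 values, while those of Gabra2 overlap them and fall to 8.92 in SD replicate 1.

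The closest relative of Grm3 is Grm2, the other group II metabotropic receptor, which acts mostly on presynaptic terminals to limit glutamate release. Grm2 ran from 8.95 through 9.13 to 9.28 in CC6 and from 8.79 through 8.87 to 9.56 in SD. Of the 7 SD mice, 4 lay below every control, while replicate 1, at 9.56, lay above every control. The fitted log2 fold change was -0.25 (SE 0.0832) and did not pass (adjusted p = 0.0786), and with RMA it was -0.11 (adjusted p = 0.536). Without SD replicate 1 it was -0.23 (adjusted p = 0.122). With only probesets over a log2 value of 6 kept it passed (-0.28, adjusted p = 0.0061). Grm2 was looked at more closely after its values were seen.

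No AMPA, NMDA, kainate or delta receptor subunit passed. Among the AMPA subunits Gria1, a main subunit of the channels that move into synapses during plasticity, had the highest moderated t (limma's ratio of a fold change to its error) of the class, from 10.71 through 10.82 to 10.94 in CC6 and from 10.50 through 10.89 to 10.98 in SD. These groups overlapped. Its log2 fold change was 0.10 (SE 0.032, adjusted p = 0.0544) after RUV and 0.01 with RMA (adjusted p = 0.971). The median of the 4 AMPA subunits was -0.01 after RUV and -0.19 with RMA, and after RUV without the 5 arrays that stood apart it was -0.0016. The NMDA subunits had a median of 0.05 (6 members, from -0.19 for Grin3a to 0.09 for Grin2c), the kainate subunits one of -0.04 (5 members, from -0.09 for Grik5 to 0.11 for Grik3) and the metabotropic receptors one of -0.05 (7 members). With RMA the median of the kainate subunits was 0.07 and that of the metabotropic receptors -0.15. The delta receptor Grid1 stood at -0.06.

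Of the GABA-A subunits 11 of 13 had a negative log2 fold change, with a median of -0.07, and 1 passed. With RMA the count was also 11 of 13, the median was -0.08, and without the 5 arrays that stood apart 10 of 13 were negative. The median of all kept probesets was 0.0008, and 16307 of 32819 were negative. After RUV, GABA-A subunits were negative in 9 of 13 cases in RS2, 8 in RS3 and 9 in RS6. Between controls 6 of 13 were negative in CC6 against CC0, 6 in CC11 against CC6 and 9 in CC11 against CC0. Gabrd, the delta subunit that pairs with alpha4, stood at -0.13 (SE 0.063, adjusted p = 0.309) after RUV but at 0.10 with RMA. Both GABA-B subunits had positive values, 0.02 for Gabbr1 and 0.09 for Gabbr2, and neither passed.

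The 4 members of the chromosome 5 cluster were all negative with RMA, with a median of -0.23, and 3 of 4 were negative after RUV, with a median of -0.04. Gabrb1, the beta1 subunit next to Gabra4, stood at -0.05 (SE 0.047, adjusted p = 0.719) after RUV and at -0.20 with RMA (adjusted p = 0.151). Gabrg1, the gamma1 subunit, stood at -0.03 (SE 0.0699, adjusted p = 0.903) and at -0.27 with RMA (adjusted p = 0.275). Gabra2, the alpha2 subunit known for the calming action of benzodiazepines in mice, ran from 9.31 through 9.66 to 9.83 in CC6 and from 8.92 through 9.71 to 9.78 in SD. These ranges overlap, and the lowest SD value was that of replicate 1. Its log2 fold change was 0.19 (SE 0.0608, adjusted p = 0.0729) after RUV and turned to -0.06 with RMA (adjusted p = 0.82). The values of Gabra2 after RUV did not overlap, as for 1.5% of all probesets in this direction. The same CC6 mice also lay below all CC0 mice after RUV, a difference that did not pass either. The share of all probesets for that state is not given here. None of the GABA-A subunits on chromosomes 7 and X passed: Gabra5 and Gabrg3 stood at -0.09 and -0.10 (-0.08 and -0.39 with RMA), and Gabre, Gabra3 and Gabrq lay between -0.07 and 0.00, with Gabra3 at -0.24 with RMA.

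**Figure D2:**
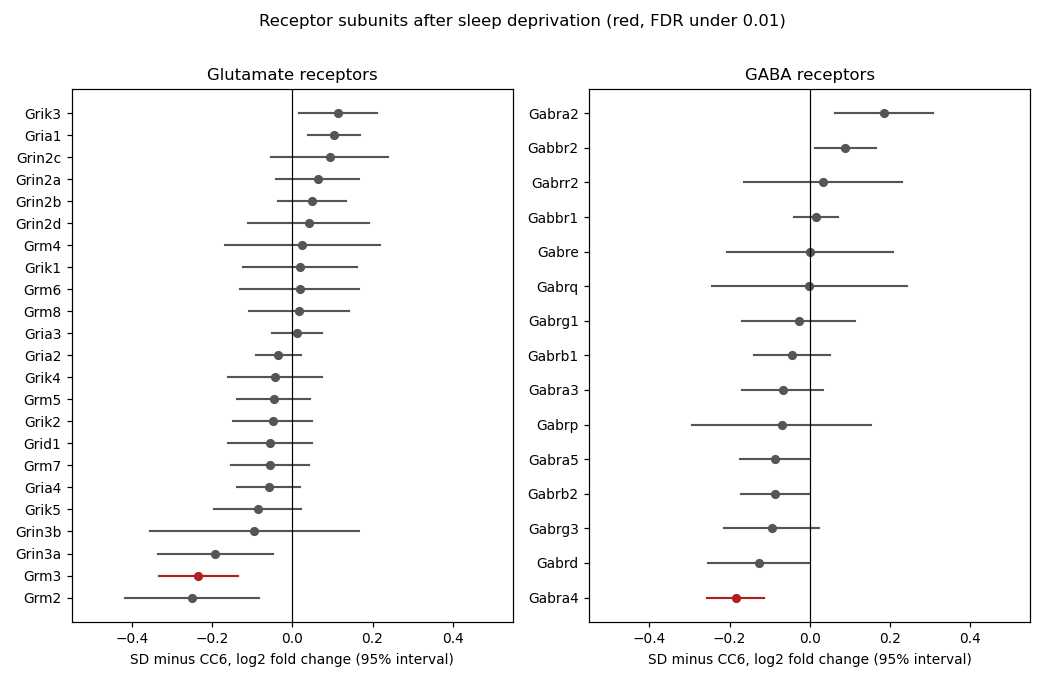
Log2 fold change of SD against CC6 (x axis, with its 95% interval) after RUV for the 23 glutamate receptor and 15 GABA receptor genes (y axis, ordered by value). The genes in red, Grm3 and Gabra4, passed an FDR under 0.01, and every interval lies within 0.5 of 0.

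All 38 intervals of SD against CC6 lay within 0.5 of 0 on the log2 scale, and those of 23 members within 0.2. The SE of a member ran from 0.027 to 0.1298, and the widest interval reached 0.42 from 0, that of Grm2. For 5 members (Grin2b, Grin2c, Grin2d, Grm6 and Grm7) a second probeset was kept, and none of these passed in any comparison. The probesets of Grin2d and Grm6 differed in sign in SD, and the lower one of Grin2b stood at 0.26 (adjusted p = 0.116) where the main one stood at 0.05.

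Markers of other cell types moved in SD as well. Of 12 astrocyte markers, 11 had positive values with a median of 0.03 and 1, Gjb6, passed. The mean of the astrocyte list ran from 9.36 to 9.48 over the CC6 arrays and from 9.12 to 9.54 over the SD arrays. With that mean as a covariate Grm3 stood at -0.22 (adjusted p = 0.00658) and Gabra4 at -0.18 (adjusted p = 0.00291). All 7 measured striatum markers were negative in SD, with a median of -0.28, and 0 passed. With their mean as a covariate Grm3 stood at -0.24 (adjusted p = 0.0026) and Gabra4 at -0.18 (adjusted p = 0.00145). Oligodendrocyte markers fell in 2 of 10 cases (Aspa and Opalin), microglia markers in 2 of 12 (Ly86 and P2ry12) and endothelial markers in 1 of 11 (Itm2a), with 1 that rose (Slc2a1). The means of the oligodendrocyte list ran from 9.09 to 9.47 in SD and from 9.42 to 9.52 in CC6, those of the microglia list from 7.71 to 7.87 and from 7.74 to 7.91, and those of the endothelial list from 7.34 to 8.24 and from 8.00 to 8.19. None of 10 excitatory neuron, 11 inhibitory neuron and 8 oligodendrocyte precursor markers passed. With RMA Gjb6, Aspa, Ly86 and Slc2a1 did not pass (adjusted p = 0.51, 0.0174, 0.0587 and 0.0443), while Opalin, P2ry12 and Itm2a did. The part of oligodendrocyte, microglia and endothelial RNA in these results was not tested.

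After 2 h of recovery sleep no receptor subunit passed against CC8, where 0.299% of all probesets did, and 9 of 38 members had an unadjusted p under 0.05, against 10.5%. Only 4 mice stand behind RS2. Gabra4 had the lowest moderated t of the GABA class. Its RS2 values were 10.42, 10.51, 10.54 and 10.65, and CC8 ran from 10.40 through 10.73 to 10.84. The groups overlap, with CC8 replicate 1 the lowest mouse of both. The log2 fold change was -0.14 (SE 0.0395, adjusted p = 0.079). Grm3 in RS2 was 10.83, 10.80, 10.87 and 10.69, and CC8 ran from 10.86 through 10.95 to 11.05. Of the RS2 mice, 3 lay below all CC8 mice. Its log2 fold change was -0.16 (SE 0.0544, adjusted p = 0.181).

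The highest moderated t values in RS2 were those of Grin2a and Gabbr2. Grin2a, the NMDA receptor subunit GluN2A that gains ground as the cortex matures, was 10.34, 10.47, 10.30 and 10.24 in RS2. In CC8 it ran from 9.93 through 10.13 to 10.31, so that the highest control lay above 2 of the 4 RS2 mice. After RUV the groups of Grin2a did not overlap, as for 1.38% of all probesets in this direction, and neither did those of Grin2b. The log2 fold change of Grin2a was 0.20 (SE 0.0571, adjusted p = 0.0883), and that of Grin2b was 0.11 (adjusted p = 0.338). Gabbr2, the GABA-B subunit that couples to the G protein, was 11.81, 11.90, 11.78 and 11.86 in RS2, and it ran from 11.65 through 11.70 to 11.76 in CC8. On the RMA values the groups did not overlap, as for 0.615% of all probesets in this direction, while after RUV they overlapped. The log2 fold change of 0.13 (SE 0.0422) did not pass (adjusted p = 0.182). In SD the same transcript ran from 11.81 through 11.83 to 11.89 and in CC6 from 11.63 through 11.73 to 11.89, and stood at 0.09 (SE 0.038, adjusted p = 0.212). All 7 striatum markers were negative in RS2 against CC8, with a median of -0.54, and 4 of them had an unadjusted p under 0.05. With their mean as a covariate Gabra4, Grm3, Grin2a and Gabbr2 stood at -0.13, -0.16, 0.17 and 0.08 in RS2, and no member passed. The inhibitory neuron marker Vip (0.30, adjusted p = 0.00102) and the endothelial marker Itm2a (-0.36, adjusted p = 0.0013) passed in RS2, but not with RMA. The part of inhibitory neuron and endothelial RNA was not tested.

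After 3 h of recovery sleep again no member passed, against 0.171% of all probesets, and 9 of 38 had an unadjusted p under 0.05, against 11.7%. Grin2a ran from 10.15 through 10.29 to 10.46 in RS3, 0.16 above CC8 in the fit (SE 0.0489, adjusted p = 0.126). Its RS3 values overlapped those of CC8, the same control mice as for RS2, but after RUV they did not, as for 0.46% of all probesets in this direction. The groups of Gabrg3 did not overlap after RUV either, with RS3 the lower. Gabrg3 did not pass, and the share of all probesets in the lower direction is not given here. Grin3a, an NMDA subunit that lowers calcium entry, ran from 7.70 through 7.90 to 8.10 in RS3 and from 7.95 through 8.04 to 8.32 in CC8, and stood at -0.17 (SE 0.0673, adjusted p = 0.262). In SD it stood at -0.19 (SE 0.0708, adjusted p = 0.128). Neither difference passed. Gabra4 ran from 10.47 through 10.59 to 10.65 in RS3, at -0.10 (SE 0.0338, adjusted p = 0.156) against CC8. Gabra2 ran from 9.63 through 9.70 to 9.95 in RS3 and from 8.80 through 9.72 to 9.98 in CC8, which overlap, and stood at 0.18 (SE 0.0578, adjusted p = 0.132).

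After 6 h of recovery sleep no member passed against CC11, against 0.149% of all probesets, and 5 of 38 had an unadjusted p under 0.05, against 14.1%. Grm2 had the highest moderated t of the glutamate class. It ran from 9.03 through 9.15 to 9.35 in RS6 and from 8.72 through 8.94 to 9.23 in CC11. All 7 RS6 mice lay above 6 of the 7 CC11 mice, and replicate 5 of CC11 was the exception. The log2 fold change was 0.22 (SE 0.0815, adjusted p = 0.173). Grik3, the low-affinity kainate receptor subunit GluK3, had the lowest, from 8.66 through 8.82 to 8.87 in RS6 and from 8.72 through 8.84 to 8.98 in CC11, which overlap (log2 fold change -0.11, SE 0.0473, adjusted p = 0.247). Among the GABA receptors, Gabbr1 ran from 11.35 through 11.41 to 11.70 in RS6 and from 11.41 through 11.45 to 11.52 in CC11 (-0.06, SE 0.0265, adjusted p = 0.316). Gabrb2, the beta2 subunit of the common synaptic receptors, ran from 9.51 through 10.06 to 10.18 in RS6 and from 9.93 through 9.99 to 10.16 in CC11. It stood at 0.06 (SE 0.0413, adjusted p = 0.503) after RUV and turned to -0.01 with RMA. All 7 striatum markers were negative in RS6 against CC11, with a median of -0.43, and 5 of them had an unadjusted p under 0.05. With their mean as a covariate Grm2, Grik3, Gabbr1 and Gabrb2 stood at 0.16, -0.15, -0.06 and 0.04, and no member passed.

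The difference between the effect of RS6 and that of SD was tested directly for each transcript. It passed for 1 of 23 glutamate receptor genes and 1 of 15 GABA receptor genes, Grm3 and Gabra4, both in the positive direction, against 1.03% of all probesets in either direction and 0.542% in the positive one. The test uses the same SD and CC6 mice as the comparison of sleep deprivation, so it is not a second line of evidence for that fall. Among the cell type markers 1 passed in this test, the oligodendrocyte gene Opalin (0.48, adjusted p = 0.00105), and its part in the result was not tested. Opalin did not pass with RMA (adjusted p = 0.0443). At an unadjusted p under 0.05 the difference counted 7 of 38 members, against 14.8% of all probesets. Corresponding tests for RS2 and RS3 passed for 0 of 38 members, against 0.0518% and 0.207% of all probesets. At an unadjusted p under 0.05 those tests counted 1 and 3 members, against 7.82% and 9.71% of all probesets.

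Grm3 ran from 10.73 through 10.98 to 11.10 in RS6 and from 10.82 through 10.84 to 11.05 in CC11. Of the 7 RS6 mice, 6 lay above 6 of the 7 CC11 mice, and RS6 replicate 1, an array that stood apart, was the lowest of both groups. Against CC11 the log2 fold change was 0.10 (SE 0.048, adjusted p = 0.304), and the RS6 effect exceeded the SD effect by 0.34 (SE 0.0667, adjusted p = 0.00152). With RMA the excess was 0.37 (adjusted p = 0.00801). It passed in each of the 28 fits that left out 1 mouse of SD, CC6, RS6 or CC11.

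For Gabra4, RS6 ran from 10.40 through 10.67 to 10.86 and CC11 from 10.64 through 10.67 to 10.77, and the fitted difference was 0.03 (SE 0.0349, adjusted p = 0.766). The RS6 effect exceeded the SD effect by 0.21 (SE 0.0485, adjusted p = 0.00683). With RMA the excess was 0.26 and did not pass (adjusted p = 0.262). It lost its call without the 5 arrays that stood apart (0.21, adjusted p = 0.0125) and on leaving out any 1 of 15 mice, namely SD replicates 2, 5 and 7, CC6 replicates 2, 4, 5 and 6, RS6 replicates 2, 3 and 7, and CC11 replicates 1, 4, 5, 6 and 7. In these fits the excess lay between 0.19 and 0.22 and the adjusted p reached at most 0.0165.

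Grm2 had the largest excess of the 38 members, 0.47 (SE 0.1133), just outside the threshold (adjusted p = 0.0112). It passed without the 5 arrays that stood apart (0.55, adjusted p = 0.00457) and without any 1 of 6 mice, SD replicate 7, CC6 replicates 1 and 4, RS6 replicates 1 and 2, and CC11 replicate 5, with values from 0.50 to 0.53 and adjusted p from 0.00326 to 0.00941. With RMA it was 0.39 (adjusted p = 0.371). In Grik3 the SD effect was 0.11 and the RS6 effect -0.11, and the difference of -0.23 (SE 0.0657) did not pass (adjusted p = 0.0446).

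**Figure D3:**
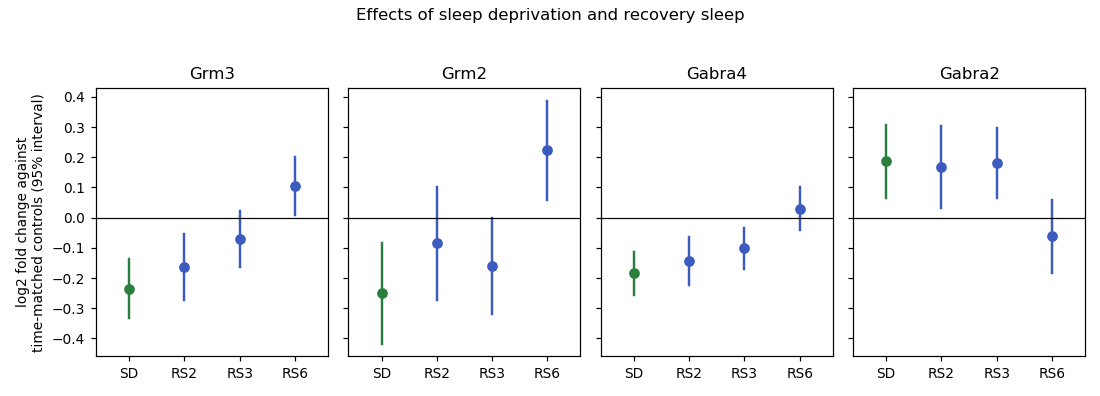
Log2 fold change after RUV (y axis, with its 95% interval) of Grm3, Grm2, Gabra4 and Gabra2 in SD (against CC6), RS2 and RS3 (against CC8) and RS6 (against CC11). Grm3 runs from -0.24 in SD to 0.10 in RS6 and Gabra4 from -0.18 to 0.03; RS2 and RS3 share their controls.

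The control means of Grm3 and Gabra4 also varied between times of day, and each effect is measured against the controls of its own time. The group means of Grm3 were 10.94 in CC0, 11.03 in CC6, 10.98 in CC7, 10.95 in CC8 and 10.87 in CC11. Those of Gabra4 were 10.50, 10.57, 10.64, 10.68 and 10.69 in the same order. The means of the treated groups were 10.75 (SD), 10.80 (RS2), 10.89 (RS3) and 10.96 (RS6) for Grm3 and 10.27, 10.53, 10.57 and 10.65 for Gabra4. No receptor subunit passed in any comparison between control groups, and the 3 comparisons share mice. Of all probesets, 0.158% passed in CC6 against CC0, 0.265% in CC11 against CC6 and 0.975% in CC11 against CC0. At an unadjusted p under 0.05 the members counted 5, 7 and 6 of 38, against 9.49%, 15.4% and 15.5% of all probesets.

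Between CC6 and CC11 the lowest moderated t values were those of Grm3 and of Gabra3, the alpha3 subunit. Grm3 in CC11 lay below every CC6 mouse in 6 of 7 cases, and replicate 2 was the exception; the fitted difference was -0.18 (SE 0.0471, adjusted p = 0.0373). Gabra3 ran from 10.47 through 10.69 to 10.83 in CC6 and from 10.47 through 10.60 to 10.65 in CC11, which overlap, at -0.18 (SE 0.0482, adjusted p = 0.0438). Both lie outside an FDR of 0.01. Grik2, the kainate receptor subunit GluK2, ran from 9.54 through 9.60 to 9.72 in CC6 and from 9.66 through 9.89 to 10.02 in CC11, at 0.16 (SE 0.047, adjusted p = 0.0687). Striatum markers moved in the same comparison, with 7 of 7 positive and a median of 0.58, and 11 of 12 astrocyte markers were negative with a median of -0.10. None of these markers passed. The excitatory neuron marker Neurod6 (-0.34, adjusted p = 0.000142) and the endothelial markers Kdr (-0.39), Tek (-0.48) and Slc2a1 (0.30) did pass, but not with RMA. The part of excitatory neuron and endothelial RNA was not tested. With the striatum mean as a covariate Grm3, Gabra3 and Grik2 stood at -0.18, -0.13 and 0.08, and with the astrocyte mean at -0.20, -0.09 and 0.11, none of which passed. Gabre, the epsilon subunit, lay near the floor, from 4.90 through 5.05 to 5.14 in CC6 and from 4.91 through 5.11 to 5.79 in CC11 (0.23, SE 0.0986, adjusted p = 0.25).

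Between CC0 and CC11 Gabra4 ran from 10.28 through 10.54 to 10.60 and from 10.64 through 10.67 to 10.77. The groups did not overlap, as for 0.262% of all probesets in this direction, and the log2 fold change was 0.11 (SE 0.0352, adjusted p = 0.0692). Grin2c, an NMDA receptor subunit best known from the cerebellum, ran from 7.29 through 7.35 to 7.55 in CC0 and from 7.09 through 7.18 to 7.24 in CC11. These did not overlap either, as for 0.366% of all probesets in this direction, at -0.19 (SE 0.0716, adjusted p = 0.143). Neither passed. Grik5, a kainate subunit that forms channels only with other subunits, ran from 9.40 through 9.42 to 9.66 in CC0 and from 9.46 through 9.49 to 9.64 in CC11 (0.14, SE 0.0534, adjusted p = 0.166). Gabra2 ran from 9.68 through 9.86 to 9.88 in CC0 and from 9.53 through 9.78 to 9.97 in CC11, at -0.19 (SE 0.0601, adjusted p = 0.0834), and at -0.05 with RMA. In CC11 against CC0, 7 of 7 striatum markers were positive with a median of 0.50, and 12 of 12 astrocyte markers were negative with a median of -0.11. Of 11 endothelial markers 4 passed, Cldn5, Kdr and Tek lower and Slc2a1 higher. The excitatory neuron marker Neurod6 (-0.41, adjusted p = 1.71e-06) and the oligodendrocyte precursor marker Gpr17 (-0.39, adjusted p = 0.00187) were lower and passed as well. With RMA only Cldn5 and Neurod6 of these passed (adjusted p = 0.00222 and 0.000548). With the striatum mean as a covariate Gabra4, Grin2c, Grik5 and Gabra2 stood at 0.10, -0.19, 0.14 and -0.22, and with the astrocyte mean at 0.10, -0.20, 0.08 and -0.22. None of these members passed, and the part of endothelial, excitatory neuron and oligodendrocyte precursor RNA was not tested.

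Against CC0, CC6 had its most extreme moderated t values in Grm2, Grik3, Gabra3 and Gabra2. Gabra2 ran from 9.31 through 9.66 to 9.83 in CC6, where 5 of 7 mice lay below every CC0 mouse, at -0.20 (SE 0.0588, adjusted p = 0.14). After RUV these groups did not overlap, with CC6 the lower, but the share of all probesets that did so is not given here. The difference did not pass. Gabra3 ran from 10.45 through 10.53 to 10.70 in CC0 and stood at 0.12 (SE 0.0486, adjusted p = 0.389). Grm2 ran from 8.80 through 8.90 to 9.61 in CC0, the highest value being that of replicate 1, an array that stood apart, and stood at 0.18 (SE 0.0805, adjusted p = 0.457). Grik3 ran from 8.88 through 9.02 to 9.52 in CC0, the highest again being replicate 1, and from 8.84 through 8.86 to 8.95 in CC6, at -0.12 (SE 0.0466, adjusted p = 0.335).

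**Figure D4:**
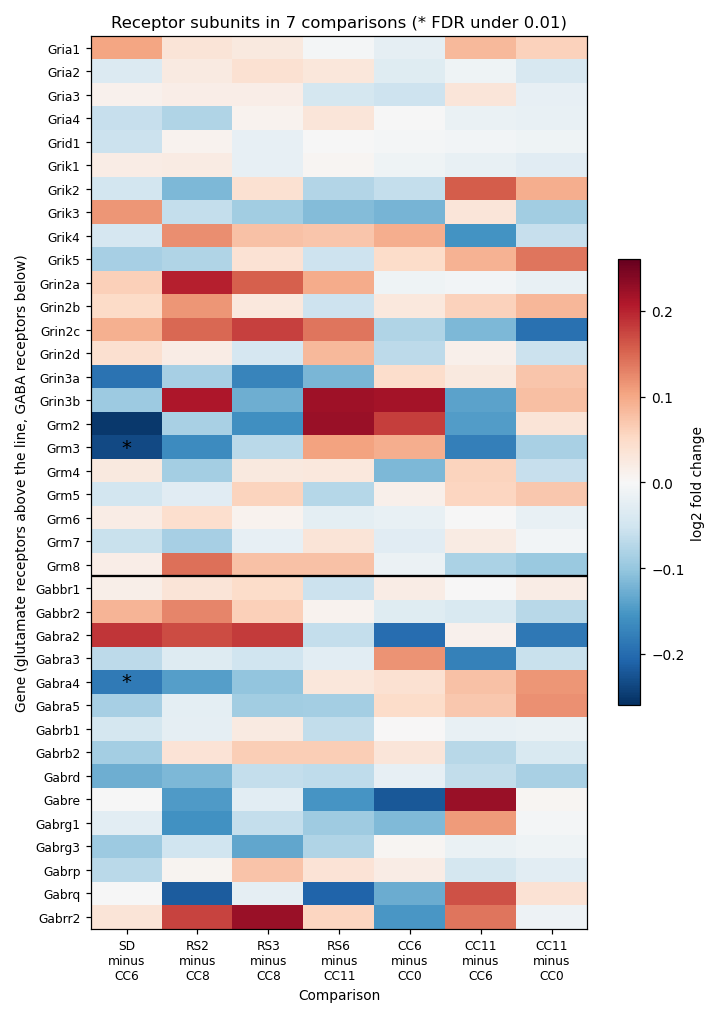
Log2 fold change after RUV (colour, red for higher and blue for lower) of the 38 receptor genes (rows, glutamate receptors above the line and GABA receptors below) in 7 comparisons (columns). The 2 stars mark an FDR under 0.01, for Grm3 and Gabra4 in SD against CC6.

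Across the 7 comparisons the widest 95% interval of the 38 probesets used reached 0.50 from 0 after RUV, in RS2. The second probeset of Grm6 reached further, to -0.56, with a log2 fold change of -0.32 in RS2. The medians of the 23 glutamate receptor genes were -0.04 in SD, 0.02 in RS2, 0.02 in RS3 and 0.03 in RS6, and those of the 15 GABA receptor genes were -0.05, -0.03, -0.02 and -0.06. With RMA the glutamate median was -0.05 in SD and 0.0042 in RS2, turned to -0.03 in RS6 and was 0.01 in RS3, and the GABA medians were -0.08, -0.03, -0.02 and -0.09. After RUV the medians of all kept probesets lay between 0.0008 and 0.0088 in these 4 comparisons.

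The proteins that work with these receptors were followed as well. Of 15 auxiliary proteins of AMPA and kainate receptors 1 rose in SD, Shisa6, which holds AMPA receptors at synapses, by 0.37 on the log2 scale (SE 0.0865, adjusted p = 0.00537), and it did not pass with RMA (adjusted p = 0.0386). Of 15 measured scaffold proteins of glutamate synapses 1 rose, Dlgap4, by 0.27 (SE 0.0432, adjusted p = 3.82e-05). Of 12 measured partners of GABA receptors, 5 genes of GABA synthesis, transport and breakdown and 7 genes of glutamate supply and uptake, 0 passed in SD. The RS6 effect was below the SD effect for Dlgap4 (-0.29, adjusted p = 0.00185) and for Shisa9, another AMPA receptor auxiliary protein (-0.37, adjusted p = 0.00106), neither of which passed with RMA (adjusted p = 0.0459 and 0.0699), and 0 genes of these 5 lists passed in RS2, RS3 or RS6 against their controls.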

How the data were processed

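The deposited table gives log2 RMA intensities, 1 value per probeset and array, and the sources used here do not say if the authors had applied RUV to it. The file holds 60 arrays. For 1 array the labels disagree on the recovery time; it was not used. Genes were named from the platform's probe-to-gene table and matched to the RefSeq gene table of GRCm38.p6 (38 of 38).

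RUVs was coded in R 4.3.3. Its 6 factors were estimated over the whole set of kept probesets, with each of the 9 groups taken as replicates. The model was fitted with limma 3.58.1 (two-sided tests). The code was also run on simulated data with known changes and independent errors. That run checks the code and not the calls given here. The labels name each mouse as a separate animal. The number of arrays limits the precision. The members and the partner and marker lists were chosen with earlier results of these data known. Full values are given for members past the threshold and, in each of the 7 comparisons and each class, for the members with the highest and the lowest moderated t. Grm2 in SD and in the RS6 difference, Grik3 in the RS6 difference, and Gabbr2 and Grin3a in SD were added after their values were seen.

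Other settings were 3 or 9 RUV factors or none, factors subtracted beforehand, no filter or one at log2 6, quantile normalization a second time, limma's trend or array weights, a block by replicate number, the 2 compared groups alone, an FDR of 0.05, every kept probeset of a member, leaving out RS2 mice and leaving out the 5 arrays that stood apart. Leaving out mice of SD, CC6, RS6 and CC11 and the marker covariates were added after seeing the data.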

Additional observations from a re-analysis of the deposited data

Results flagged for a closer look

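In 8 of 54 values of named members per group, 1 mouse lay far from the rest of its group (Dixon's criterion at the 95% level, which chance meets in about 1 of 20 groups). Of these 8 values, 6 were on replicate 1 arrays that stood apart on the first principal component. Grm2 was 9.56 in SD replicate 1, where the next value was 9.04, and 9.61 in CC0 replicate 1, where the next was 8.99. Grik3 was 9.52 in CC0 replicate 1 (next 9.05) and 8.95 in CC6 replicate 5 (next 8.88). Gabra2 was 8.80 in CC8 replicate 1 (next 9.63). In RS6 replicate 1, Gabrb2 was 9.51 (next 10.04) and Gabbr1 11.70 (next 11.43). Grm3 was 11.05 in CC11 replicate 2 (next 10.87).

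The effect of sleep deprivation differed from that of 6 h of recovery sleep by the test of the difference itself for Grm3 (0.34 on the log2 scale, adjusted p = 0.00152) and for Gabra4 (0.21, adjusted p = 0.00683), in limma with RUV.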

How the results depend on the processing

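The falls of Grm3 and Gabra4 in SD passed in 13 of 14 other settings each, with log2 fold changes from -0.28 to -0.21 and from -0.30 to -0.17, and the exception was the fit of the 2 compared groups alone. There the counts of glutamate and of GABA receptor members passing in SD were both 0. With a filter at a log2 value of 6 the glutamate count in SD was 2, as Grm2 joined (-0.28, adjusted p = 0.0061). For the RS6 effect minus the SD effect, the glutamate count was 2 with 9 RUV factors, factors subtracted beforehand, the filter at 6, a second quantile normalization, array weights, limma's trend, the striatum covariate or without the 5 arrays that stood apart, and 3 at an FDR of 0.05. The GABA count was 0 with no RUV factors, with 3 factors or without those 5 arrays. Leaving out 1 mouse, the glutamate count ran from 1 to 2 and the GABA count from 0 to 1. In CC11 against CC6 the glutamate count was 1 with array weights and at an FDR of 0.05, where the GABA count was also 1. With no RUV factors and in the 2 groups alone, Gabra2 in SD turned to -0.0622 and Gabrb2 in RS6 to -0.0107. The fit of the compared groups alone was not run for differences of effects. The cause of these changes was not tested.

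By the study's methods, the protocol was run on several days with 1 mouse for each time point a day, but the labels do not say that a replicate number marks a day, and the numbers were not taken to pair the mice. Deviations of arrays with the same number correlated with a median of 0.055 over 220 pairs, against -0.006 for different numbers. The correlation was over 0.1 in 55 of those 220 pairs and in 105 of 1323 pairs with different numbers, and 19 of 59 arrays were closest to one of their own number. With the replicate number as a block, the glutamate count was 2 in SD (Grm2 at -0.31, adjusted p = 0.00871) and 2 for the RS6 effect minus the SD effect (Grm2 at 0.57, adjusted p = 0.000336), and the GABA count for the latter was 0 (Gabra4 at 0.22, adjusted p = 0.0111). The block changed no other count.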
